A study of Arabidopsis thaliana with 14 samples.

Results

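The Aux/IAA genes described here are IAA1 to IAA7, IAA14, IAA19 and IAA29 of Arabidopsis thaliana, taken by their gene identifiers. They are 10 of the 24350 genes in the deposited tables, and all 10 were found there. RNA-Seq was made from dark-grown seedlings, with hypocotyl given as the tissue, in 14 samples of 5 groups. The groups are the bzr1-1D mutant with DPI plus H2O2 (2 samples), bzr1-1D with DPI (3), bzr1-1D mock (3), Col-0 with DPI (3) and Col-0 mock (3).

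All groups, mock included, grew for 6 days in darkness on medium with 2 µM propiconazole (PPZ), which blocks brassinosteroid (BR) synthesis. DPI, an inhibitor of NADPH oxidases and other flavoenzymes, was used at 1 µM, and 0.3 mM was the dose of H2O2. The bzr1-1D allele is a dominant mutation in the gene of the BR-activated transcription factor BZR1, in the Columbia background of the wild type Col-0. Among these 14 samples, H2O2 was given only to bzr1-1D and only together with DPI. Its addition in Col-0, or without DPI, therefore has no measurement here. The level of BZR1 itself cannot check the genotype, since the mutation changes the protein and not the presence of the transcript. It was 40.8, 35.7 and 50.7 FPKM in bzr1-1D with DPI plus H2O2, with DPI and in mock, against 34.7 and 35.9 FPKM in Col-0 with DPI and in mock.

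Aux/IAA proteins are short-lived nuclear repressors. They bind auxin response factors (ARFs) at auxin-responsive promoters and recruit the co-repressor TOPLESS (TPL). Auxin joins them to the TIR1/AFB receptors, through which they are ubiquitinated and degraded, and the ARFs are released. Many Aux/IAA genes are themselves early auxin-induced targets, so the family is both a repressor of the auxin response and a readout of it. In the hypocotyl, auxin and BR both promote cell elongation.

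The measurement is the authors' group mean, taken here as FPKM (fragments scaled for gene length and for the number of mapped fragments), and each gene has 1 value per group. No spread between samples, n, confidence interval or p-value can therefore be given, and no difference below can be set against replicate error. By their decimals, the means were taken over 2 libraries for the bzr1-1D groups with DPI plus H2O2 and mock, and over 3 for the rest, although bzr1-1D mock has 3 samples in the labels. The lowest value in the tables is 0.01 FPKM. It was taken to stand for 0 and is called a listed 0 below. A log2 ratio is that of the means after adding 0.1 FPKM to each, and a gene was counted as higher or lower when it passed 1.5-fold and its mean over both groups was at least 1 FPKM. IAA5 never reached that minimum. IAA6 reached it only in comparisons with a bzr1-1D group in which it was high, so its place in those counts follows from that.

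Sequence before the gene start is shown for IAA19 and IAA6, which had the highest ratios of bzr1-1D over Col-0, and for IAA7, which had the lowest. The 300 bases before the RefSeq gene start were read on the gene strand from the TAIR10.1 assembly, at chr3:5263701-5264000 (plus strand) for IAA19, chr1:19673653-19673952 (minus) for IAA6 and chr3:8194306-8194605 (plus) for IAA7. Capitals mark matches on either strand to the auxin response element (AuxRE) TGTCTC or TGTCGG, the BR response element CGTGTG or CGTGCG that BZR1 is known to bind, and the G-box CACGTG.
IAA19: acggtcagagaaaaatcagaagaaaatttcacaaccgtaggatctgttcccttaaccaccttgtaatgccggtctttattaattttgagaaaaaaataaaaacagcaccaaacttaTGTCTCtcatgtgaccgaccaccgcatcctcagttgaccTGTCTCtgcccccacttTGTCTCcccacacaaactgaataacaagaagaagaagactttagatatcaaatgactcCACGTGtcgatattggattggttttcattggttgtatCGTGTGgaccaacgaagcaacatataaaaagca
IAA6: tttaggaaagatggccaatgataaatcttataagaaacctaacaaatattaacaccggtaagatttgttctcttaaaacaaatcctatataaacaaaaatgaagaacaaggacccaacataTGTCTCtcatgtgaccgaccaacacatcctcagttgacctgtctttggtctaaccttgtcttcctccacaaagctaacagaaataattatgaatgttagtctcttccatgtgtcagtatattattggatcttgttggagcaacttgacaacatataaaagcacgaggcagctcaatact
IAA7: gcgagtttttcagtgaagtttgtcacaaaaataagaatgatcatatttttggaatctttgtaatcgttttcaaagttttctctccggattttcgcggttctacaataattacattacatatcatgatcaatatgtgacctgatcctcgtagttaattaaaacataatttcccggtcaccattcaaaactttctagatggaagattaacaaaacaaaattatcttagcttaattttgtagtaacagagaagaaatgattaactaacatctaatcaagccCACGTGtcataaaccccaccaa

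IAA19 held TGTCTC at 3 places in this window, the G-box 70 to 65 bases and CGTGTG 33 to 28 bases before its start. IAA6 held TGTCTC once, 179 to 174 bases before its start, and IAA7 held the G-box 22 to 17 bases before its start. TGTCTC lay in the window of 5 of the 10 genes (IAA1, IAA3, IAA5, IAA6 and IAA19), against 13% of the windows of 27443 protein-coding genes. CGTGTG lay in that of 2 (IAA1 and IAA19; 6.11% of all), CGTGCG in none (1.78% of all), the G-box in 2 (IAA7 and IAA19; 7.09%) and TGTCGG in 2 (IAA1 and IAA5; 4.91%). IAA2, IAA4, IAA14 and IAA29 held none of the 5 motifs. With 1000 bases in place of 300, TGTCTC was found in 7 genes (39.6% of all), TGTCGG in 3 (14.6%), CGTGTG in 3 (17.2%) and the G-box in 4 (14.8%). Such matches describe letters in a window and say nothing about binding.

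IAA6 and IAA19 also shared an unbroken run of 23 bases that holds a TGTCTC match. It lies 181 to 159 bases before the start of IAA6 and 186 to 164 bases before that of IAA19, and it is shown because no other of the 45 pairs of these genes shared more than 12 bases.
IAA6 and IAA19: taTGTCTCtcatgtgaccgacca

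The coding sequences carry the signature of the family's degron, the stretch by which auxin joins an Aux/IAA protein to its receptor. The letters GGNTGGCCNCCN, which encode its glycine, tryptophan and paired prolines, were found in reading frame in 10 of 10 genes, in 13 of the 19 other Aux/IAA genes and in 34 of 27444 protein-coding genes (0.124%). The 24 bases around them are given for genes with unlike responses, with the degron letters in capitals. They lie, each within 1 exon, at chr3:5264310-5264333 (plus strand) for IAA19, chr1:19673326-19673349 (minus) for IAA6, chr3:8195571-8195594 (plus) for IAA7, chr4:15583945-15583968 (plus) for IAA29 and chr1:1129022-1129045 (minus) for IAA3.
IAA19: gtggtgGGGTGGCCACCGgtttgt
IAA6: gcggtgGGATGGCCACCTgtgtgt
IAA7: gtggtgGGATGGCCACCTgtgagg
IAA29: gttgttGGATGGCCACCAgtaaaa
IAA3: attgttGGATGGCCACCAgttaga

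Several of these genes are close relatives or neighbours. IAA1 and IAA2 had 83.6% identity over aligned coding bases, IAA3 and IAA4 82.8%, IAA7 and IAA14 82.0%, and IAA6 and IAA19 75.9%. The longest identical runs in these pairs were 29, 42, 41 and 26 bases, in the same order, and reads from such runs cannot be told apart if they are no longer than the run. The read length was not given in the sources used here. IAA1 and IAA14 lie 10732 bases apart on chromosome 4, IAA2 and IAA7 12510 bases apart on chromosome 3, and IAA3 and its relative IAA17 6388 bases apart on chromosome 1. Each of these pairs is transcribed outward, with 0 protein-coding genes between.

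IAA19 (AT3G15540, chr3:5264001-5265695, plus strand), a repressor of the ARF7 pathway in hypocotyl growth and tropism, had the widest gap between genotypes among the well-expressed members. Its level was 66.6, 21.3 and 86.4 FPKM in bzr1-1D with DPI plus H2O2, with DPI and in mock, against 2.73 and 3.71 FPKM in Col-0 with DPI and in mock. Every bzr1-1D group thus lay above both Col-0 groups, also under DPI. IAA6 (AT1G52830, chr1:19672476-19673652, minus strand), its closest relative by coding sequence here, stood at 4.42, 0.64 and 8.80 FPKM in the same bzr1-1D groups, against a listed 0 (0.01 FPKM) and 0.0433 FPKM in Col-0 with DPI and in mock. IAA6 was thus near or at 0 in the wild type, and no size is given for its fold over Col-0.

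IAA5 (AT1G15580, chr1:5365512-5366497, minus strand), an early auxin-induced gene, was near 0 throughout, with 0.265, 0.05 and 0.435 FPKM in bzr1-1D with DPI plus H2O2, with DPI and in mock, against a listed 0 and 0.05 FPKM in Col-0 with DPI and in mock. Like IAA19 it was highest in bzr1-1D mock, but at levels where its ratios depend on the pseudocount. IAA1 (AT4G14560, chr4:8360996-8362033, plus strand), whose gain-of-function allele gives auxin resistance, had 10.2, 3.18 and 9.33 FPKM in the bzr1-1D groups with DPI plus H2O2, with DPI and in mock, against 1.25 and 1.61 FPKM in Col-0 with DPI and in mock. Its level with DPI plus H2O2 stood slightly above that of bzr1-1D mock.

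IAA2 (AT3G23030, chr3:8180646-8182095, minus strand), whose promoter is widely used to report auxin responses, had 128, 47.3 and 160.2 FPKM in bzr1-1D with DPI plus H2O2, with DPI and in mock, against 28.1 and 57.6 FPKM in Col-0 with DPI and in mock. Here bzr1-1D with DPI fell below Col-0 mock. SHY2, that is IAA3 (AT1G04240, chr1:1128149-1129689, minus strand), known for light-like growth in darkness when it is stabilised, had 37.6, 12.4 and 45.2 FPKM in these bzr1-1D groups, against 4.32 and 9.95 FPKM in Col-0 with DPI and in mock. IAA4 (AT5G43700, chr5:17550179-17551715, plus strand), listed as ATAUX2-11 and the closest relative of IAA3, had 63.8, 27.5 and 64.2 FPKM in these bzr1-1D groups, against 8.40 and 15.9 FPKM in Col-0 with DPI and in mock. Unlike IAA2, IAA3 and IAA4 stayed above Col-0 mock in bzr1-1D with DPI.

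AXR2, that is IAA7 (AT3G23050, chr3:8194606-8197161, plus strand), whose stabilised form gives dwarf and agravitropic plants, was the most abundant of the 10 in every group. Its level was 244.1, 100.2 and 244.4 FPKM in bzr1-1D with DPI plus H2O2, with DPI and in mock, against 101.2 and 148 FPKM in Col-0 with DPI and in mock. The genotypes were side by side under DPI. SLR, that is IAA14 (AT4G14550, chr4:8347822-8350263, minus strand), which blocks lateral root initiation when stabilised and is the closest relative of IAA7, had 9.76, 5.08 and 8.69 FPKM in these bzr1-1D groups, against 2.36 and 3.58 FPKM in Col-0 with DPI and in mock. IAA29 (AT4G32280, chr4:15583332-15584903, plus strand), known as a shade-induced target of PIF factors, had 11.6, 4.18 and 16.9 FPKM in these bzr1-1D groups, against 3.36 and 9.01 FPKM in Col-0 with DPI and in mock. Like IAA2 and IAA7, it stood in bzr1-1D with DPI below its Col-0 mock level.

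Over the 10 genes, the highest level was in bzr1-1D mock for 8, whereas IAA1 and IAA14 were highest with DPI plus H2O2. The lowest was in Col-0 with DPI for 9, and IAA7 was lowest in bzr1-1D with DPI, by 1.01-fold below Col-0 with DPI. In bzr1-1D with DPI, 6 genes stood above Col-0 mock, 3 below it and IAA5 level with it. The summed level was 576, 222 and 644.5 FPKM in bzr1-1D with DPI plus H2O2, with DPI and in mock, against 152 and 249.7 FPKM in Col-0 with DPI and in mock. IAA2 and IAA7 made up most of each sum.

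**Figure D1:**
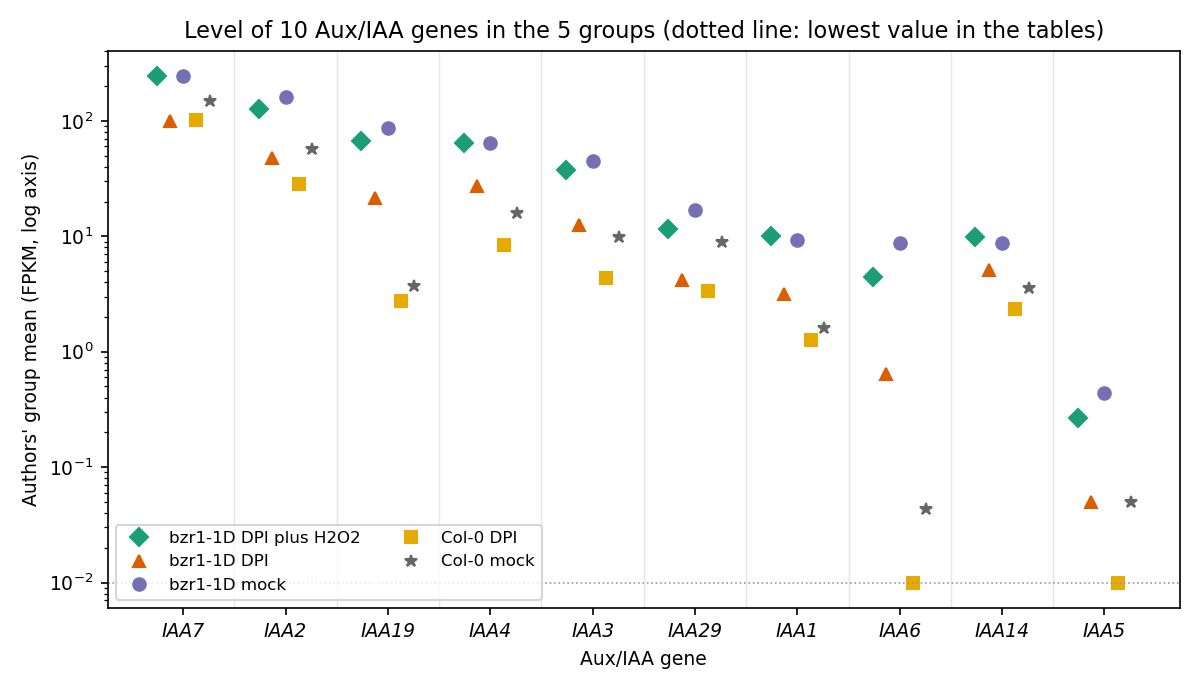
Level of each of the 10 Aux/IAA genes (horizontal axis) as the authors' mean of each group in FPKM (vertical log axis), 1 symbol per group and no error bars, since the files hold group means. IAA19 runs between 2.73 FPKM in Col-0 with DPI and 86.4 FPKM in bzr1-1D mock, while IAA7, the most abundant gene, runs between 100.2 and 244.4 FPKM.

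The first comparison asked how the constitutively active BZR1 allele changes these genes when BR synthesis is blocked. In mock, 9 of the 9 genes that reached the minimum were higher in bzr1-1D than in Col-0, against 25.5% higher and 15.1% lower of the 18346 genes compared. Centred on the median gene, whose log2 ratio was 0.14, these shares were 19.9% and 19.2%, and 8 of the 9 stayed past the fold. IAA7 was the exception, at 0.72 before and 0.58 after centring. The median log2 ratio of the 9 genes was 2.00, with IAA6 among them only through its level in bzr1-1D mock.

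IAA19 was 23.3-fold higher in bzr1-1D mock than in Col-0 mock (log2 ratio 4.50 with the pseudocount), the largest ratio among members with a level above 1 FPKM in both groups. The relatives IAA1, IAA3 and IAA4 followed with 5.78-fold, 4.54-fold and 4.03-fold. IAA2 was 2.78-fold and IAA14 2.43-fold higher. IAA29 and IAA7 closed the order with 1.87-fold and 1.65-fold, so the most abundant gene in Col-0 mock differed least. The order does not follow the level in Col-0 alone, since IAA2, at 57.6 FPKM in Col-0 mock, had a larger ratio than IAA29 at 9.01 FPKM.

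With both genotypes under DPI, 6 of the 8 genes that reached the minimum were higher in bzr1-1D than in Col-0, against 25.5% higher and 8.7% lower of 17694 genes. These shares were 17.8% and 14% when centred on the median gene (log2 ratio 0.19), and 5 genes stayed past the fold, IAA2 at 0.75 before and 0.56 after. IAA19 was 7.78-fold higher, IAA4 3.27-fold, IAA3 2.87-fold, IAA1 2.53-fold, IAA14 2.15-fold and IAA2 1.68-fold. IAA29, at 1.24-fold, and IAA7, at 0.99-fold, did not pass. The median log2 ratio of the 8 genes was 1.17, and IAA6 is not among these genes, unlike in mock. IAA6 was at 0.64 FPKM in bzr1-1D with DPI and listed at 0 in Col-0 with DPI.

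**Figure D2:**
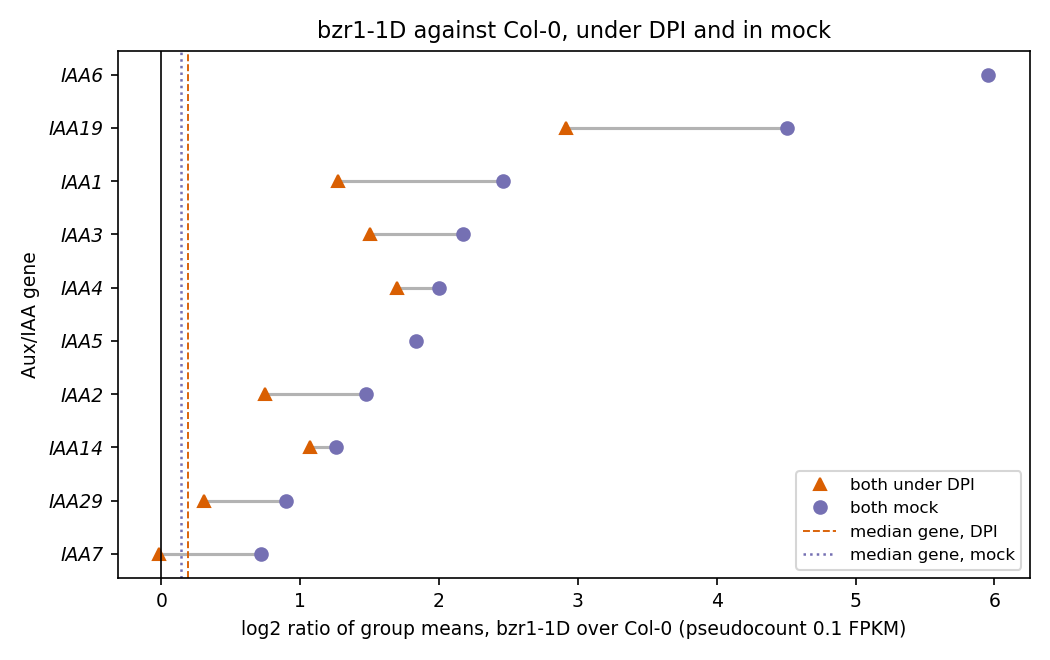
Log2 ratio of bzr1-1D over Col-0 (horizontal axis, pseudocount 0.1 FPKM) for each gene, with triangles for both genotypes under DPI and circles for both in mock, joined by a line, and vertical lines at the median gene of each comparison. Every drawn triangle lies left of its circle, IAA19 at 2.91 and 4.50 and IAA14 at 1.07 and 1.25, and IAA5 and IAA6 have no triangle because Col-0 with DPI is listed at 0.

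The next comparisons asked what DPI does to these genes in each genotype. In bzr1-1D, 9 of the 9 genes that reached the minimum were lower with DPI than in mock, against 14.7% higher and 29.1% lower of 18286 genes. Centred on the median gene (log2 ratio -0.23), these shares were 21.4% and 18.4%, and 8 of the 9 stayed past the fold. IAA14 was the exception, at -0.76 before and -0.53 after. The median log2 ratio of the 9 was -1.76, with IAA6 among them only through its level in bzr1-1D mock.

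The level left in bzr1-1D with DPI, as a share of bzr1-1D mock, was smallest for IAA6 at 7.28%, where that level was only 0.64 FPKM. IAA19 kept 24.6%, IAA29 24.7%, IAA3 27.5%, IAA2 29.6% and IAA1 34.0%. IAA7 kept 41.0%, IAA4 42.9% and IAA14 58.4%. The pairs of close relatives did not keep like shares, with 27.5% in IAA3 and 42.9% in IAA4, and 41.0% in IAA7 and 58.4% in IAA14. IAA5 kept 11.5%, from levels under 1 FPKM.

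In Col-0, 4 of the 8 genes that reached the minimum were lower with DPI than in mock (IAA2, IAA3, IAA4 and IAA29), against 3.86% higher and 24.1% lower of 17684 genes. Relative to the median gene (log2 ratio -0.28), the shares were 9.14% and 10.3%, and the same 4 genes passed. IAA29 kept 37.3% of its Col-0 mock level, IAA3 43.4%, IAA2 48.9% and IAA4 52.7%. The other genes kept more, with 65.9% in IAA14, 68.3% in IAA7, 73.7% in IAA19 and 77.7% in IAA1. IAA14, with a log2 ratio of -0.58, fell just short of the fold. The median log2 ratio of the 8 was -0.75.

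Set side by side, the log2 ratio of DPI over mock was lower in bzr1-1D than in Col-0 for 8 of the 8 genes that reached the minimum in both, and for 42.6% of all 17242 such genes. The difference (bzr1-1D minus Col-0) was -1.59 in IAA19, with log2 ratios of -2.02 in bzr1-1D and -0.43 in Col-0. For IAA1 it was -1.18, with -1.53 in bzr1-1D and -0.34 in Col-0. The smallest differences were -0.18 in IAA14 and -0.30 in IAA4. Over the 8 genes the median difference was -0.70, against 0.09 over all genes. These differences could not be tested, having 1 value in each of 4 groups. The same subtraction gives the change of the genotype ratio under DPI, so it is not a second observation. The mean of bzr1-1D mock enters both this difference and the genotype ratio in mock, in which these 8 genes were all counted as higher. The share over all genes is therefore not a like background.

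The last comparisons asked whether added H2O2 changes the genes in bzr1-1D under DPI. Of the 9 genes that reached the minimum, 9 were higher with DPI plus H2O2 than with DPI alone, against 26.4% higher and 4.03% lower of 18232 genes. Centred on the median gene (log2 ratio 0.28), the shares were 11.2% and 11.3%, and the 9 genes stayed past the fold. IAA6 was 6.90-fold higher, from 0.64 FPKM with DPI, and reached the minimum only through its level with DPI plus H2O2. Its log2 ratio depends on the pseudocount, at 2.61 with 0.1 FPKM and 1.72 with 1 FPKM. IAA1, IAA19 and IAA3 were 3.195-fold, 3.13-fold and 3.03-fold higher, IAA29 2.78-fold and IAA2 2.70-fold. IAA7, IAA4 and IAA14 were 2.44-fold, 2.32-fold and 1.92-fold higher. The median log2 ratio of the 9 was 1.46, and IAA5 was at 0.265 FPKM with DPI plus H2O2, against 0.05 FPKM with DPI.

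Against bzr1-1D mock, bzr1-1D with DPI plus H2O2 had 0 genes higher, 1 lower and 8 within 1.5-fold of the 9 compared, against 16% higher and 10.3% lower of 18523 genes. The lower gene was IAA6, at 50.2% of its mock level, and it did not reach a 2-fold threshold, which 4.06% of all genes passed as lower. IAA7 stood at 99.9% and IAA4 at 99.4% of bzr1-1D mock, and IAA1 and IAA14 at 109% and 112%. Below these were IAA3 at 83.3%, IAA2 at 79.8%, IAA19 at 77.1% and IAA29 at 68.9%. IAA5 stood at 60.9%. The median log2 ratio of the 9 was -0.26, against 0.04 over all genes. The comparisons among bzr1-1D groups share those groups, so a low value in bzr1-1D with DPI enters both of its comparisons with opposite sign.

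**Figure D3:**
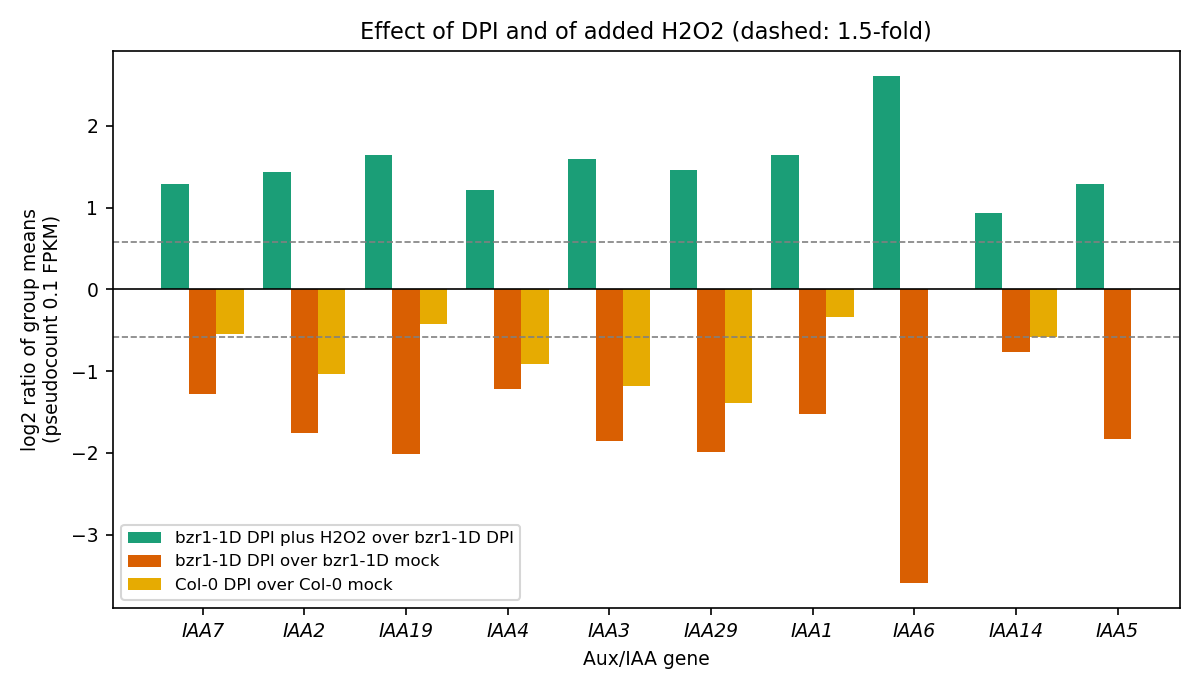
Log2 ratio of group means (vertical axis, pseudocount 0.1 FPKM) for each gene, with bars for bzr1-1D with DPI plus H2O2 over DPI, bzr1-1D with DPI over mock, and Col-0 with DPI over mock, and dashed lines at 1.5-fold. The bars of bzr1-1D point down with DPI (-2.02 in IAA19) and up with added H2O2 (1.64 in IAA19), and those of Col-0 are shorter in each gene (-0.43 in IAA19) or not drawn (IAA5 and IAA6, listed at 0 in Col-0 with DPI).

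Markers of other tissues were present beside these results. The summed level of 4 photosynthetic genes was 13384, 29182 and 8401 FPKM in bzr1-1D with DPI plus H2O2, with DPI and in mock, against 66255 and 30432 FPKM in Col-0 with DPI and in mock. CAB1 made up most of each sum, as with 52915 FPKM in Col-0 with DPI. The highest summed Aux/IAA level and the lowest photosynthetic sum were those of bzr1-1D mock. Col-0 with DPI had the lowest Aux/IAA and the highest photosynthetic sum. The order was not inverse throughout, since bzr1-1D with DPI was below Col-0 mock in both sums. The 5 root epidermis markers were listed above 0 in every group, though RSL4 was at only 0.07 FPKM in Col-0 mock. They summed to 20.0, 13.7 and 38.4 FPKM in the same bzr1-1D groups, against 89.2 and 22.4 FPKM in Col-0 with DPI and in mock. PRP3 made up most of each sum, as with 69.3 FPKM in Col-0 with DPI. The 4 seed storage genes summed to 376, 351 and 250.1 FPKM in these bzr1-1D groups, against 32.2 and 256 FPKM in Col-0 with DPI and in mock. Root epidermis transcripts were thus present although hypocotyl is the labelled tissue, and the sums of Col-0 with DPI stood apart for the photosynthetic, root and seed lists. Single markers did not all follow these sums: SESA3 had 10.5 FPKM in Col-0 with DPI, against 6.49 FPKM in Col-0 mock, and RSL4 had 0.143 FPKM in Col-0 with DPI, below the 0.64 FPKM of bzr1-1D mock. The part of these markers in the Aux/IAA values was not tested, and in bulk samples fewer cells of a type and less RNA per cell cannot be told apart. Summed FPKM over all genes ran between 696670 and 730992, and the 10 most abundant genes took 7.5% to 16.1% of it.

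Among the 19 other Aux/IAA genes, 15 reached the minimum in mock, of which 6 were higher in bzr1-1D than in Col-0 (25.5% of all genes), 1 was lower (15.1%) and 8 were within the fold. Their median log2 ratio was 0.51, against 2.00 in the genes described, which were chosen with earlier results of these data known. The 2.00 includes IAA6, which reached the minimum only through its level in bzr1-1D mock. IAA32 stood at 10.4 FPKM in bzr1-1D mock, against 2.36 FPKM in Col-0 mock. IAA34 stood at 2.31 FPKM in bzr1-1D mock, against 0.517 FPKM in Col-0 mock. It reached the minimum only in comparisons with bzr1-1D mock, where it was high, so its place in those counts follows from that. The degron letters were not found in IAA32 or in IAA34. IAA17 (AXR3), the neighbour of IAA3 and a relative of IAA7 and IAA14, had 127 FPKM in bzr1-1D mock, against 48.9 FPKM in Col-0 mock. IAA13, IAA16 and IAA28 were 1.59-fold, 1.57-fold and 1.51-fold higher, and were within the fold after centring on the median gene. IAA27 ran the other way, at 8.51 FPKM in bzr1-1D mock, against 30.7 FPKM in Col-0 mock.

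With DPI in bzr1-1D, 9 of 15 other Aux/IAA genes were lower than in mock (29.1% of all genes) and 0 were higher. IAA34 counts as lower, also after centring, only because its level in bzr1-1D mock brought it to the minimum. Among the genes described, IAA6 likewise enters the values below only through bzr1-1D mock or bzr1-1D with DPI plus H2O2, where it was high. The median log2 ratio of the 15 was -0.65, against -1.76 in the genes described. With added H2O2, 10 of 14 were higher than with DPI alone (26.4% of all genes), with a median log2 ratio of 0.67, against 1.46 in the genes described. Centred on the median gene, 3 of the 15 (18.4% of all genes) and 3 of the 14 (11.2% of all genes) passed, whereas 8 of 9 and 9 of 9 of the genes described did. IAA27 did not follow, at 7.41, 7.35 and 8.51 FPKM in bzr1-1D with DPI plus H2O2, with DPI and in mock. In Col-0, 4 of 14 were lower with DPI than in mock, against 24.1% of all genes, and 1 of them passed after centring, against 10.3%, which is near the share over all genes. The lists share the family's sequences and the same libraries. They were also chosen with earlier results of these data known. These medians and counts therefore describe the lists and do not test a difference.

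**Figure D4:**
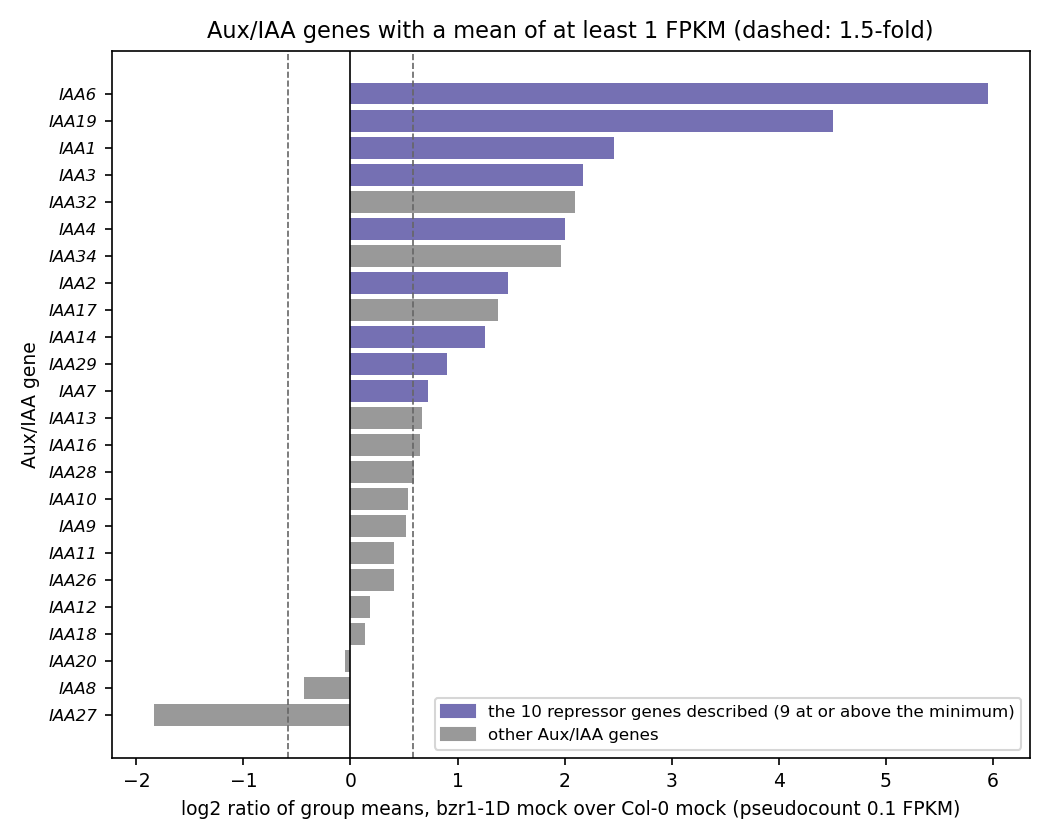
Log2 ratio of bzr1-1D mock over Col-0 mock (horizontal axis, pseudocount 0.1 FPKM) for each Aux/IAA gene that reached the minimum of 1 FPKM, the genes described in colour and the other family members in grey, with dashed lines at 1.5-fold. Bars run between -1.84 in IAA27 and 4.50 in IAA19, and the longer bar of IAA6 has no defined size, since its Col-0 mean is 0.0433 FPKM.

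Transcripts of the proteins that work with the repressors were counted in the same way. None of the 6 TIR1/AFB receptors passed the fold in any of the 6 comparisons, with log2 ratios in mock between -0.45 and 0.50. In mock, 25.5% of all genes were higher in bzr1-1D and 15.1% were lower. TIR1 alone passed, as lower, after centring on the median gene. It did so in bzr1-1D mock against Col-0 mock (19.2% of all genes) and when H2O2 was added to DPI (11.3%). Of 5 activating ARFs, which the Aux/IAA proteins repress, ARF7 was higher in bzr1-1D mock at 16.7 FPKM, against 10.7 FPKM in Col-0 mock, and was within the fold after centring. ARF5 was lower at 4.51 FPKM in bzr1-1D mock, against 7.51 FPKM in Col-0 mock. With 1 of 5 higher and 1 of 5 lower, the ARFs were near the shares over all genes (25.5% and 15.1%). TPL, the co-repressor that Aux/IAA proteins recruit, was lower at 57.8 FPKM in bzr1-1D mock, against 103 FPKM in Col-0 mock. The 4 related TPR genes were within the fold, so that 1 of 5 was lower, near the 15.1% of all genes.

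The GH3 genes, many of them auxin-induced, encode enzymes that conjugate auxin to amino acids, and they did not move as 1 group. Of 6 measured, GH3.1, GH3.2 and GH3.17 were higher in bzr1-1D mock than in Col-0 mock (25.5% of all genes). Their log2 ratios were 1.81, 0.66 and 0.68, and only GH3.1 stayed past the fold after centring. GH3.3, GH3.5 and GH3.6 were lower (15.1% of all genes), with -0.65, -0.96 and -1.43. GH3.3 had 58.2, 47.5 and 5.36 FPKM in bzr1-1D with DPI plus H2O2, with DPI and in mock, against 31.6 and 8.43 FPKM in Col-0 with DPI and in mock. It was thus high wherever DPI was given, unlike the Aux/IAA genes, and added H2O2 did not lower it.

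Of 14 auxin biosynthesis genes, 6 reached the minimum in mock. Of these, 3 were higher in bzr1-1D than in Col-0 (25.5% of all genes) and 1 was lower (15.1%). TAA1, which makes the precursor of auxin from tryptophan, stood at 22.3 FPKM in bzr1-1D mock, against 5.20 FPKM in Col-0 mock. YUC3 and YUC6, of the family that completes the synthesis, were higher with log2 ratios of 1.74 and 0.67, YUC6 at 0.53 after centring. TAR2, a relative of TAA1, was lower at -1.19. With DPI in bzr1-1D, 4 of the 6 were lower than in mock (29.1% of all genes) and 1 was higher (14.7%). After centring on the median gene, 1 was lower (18.4% of all genes) and 1 was higher (21.4%), near the shares over all genes.

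Genes with the pattern most like IAA19 were looked for by the distance between log2 levels over the 5 groups, each gene centred on its own mean, among 12766 genes that averaged 5 FPKM or more. The nearest outside the members was AT5G41900, an alpha/beta-hydrolase (distance 0.42), followed by GPAT3, a glycerol-3-phosphate acyltransferase (0.58). AT1G12080, annotated as a vacuolar calcium-binding protein-like protein, was at 0.71, MYB27 at 0.71 and AT3G01260, of the galactose mutarotase-like superfamily, at 0.80. GPAT3, for example, had 44.7, 21.4 and 81.3 FPKM in bzr1-1D with DPI plus H2O2, with DPI and in mock, against 3.16 and 3.6 FPKM in Col-0 with DPI and in mock. IAA5 and IAA6 averaged less and were not ranked. With the pseudocount of 0.1 FPKM, IAA6 had a distance of 1.36 to IAA19, against 1.97 for IAA1. That distance of IAA6 depends on the pseudocount, since IAA6 was at 0.01 and 0.0433 FPKM in Col-0 with DPI and in mock. Of the members that were ranked, IAA1 came nearest at rank 79, then IAA3 at 106 and IAA4 at 113, and IAA7 was farthest at rank 2362. Ranks of the other Aux/IAA genes were not looked up. Only the means of the 5 groups set this order.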

How the data were processed

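RNA was sequenced as mRNA libraries on the BGISEQ-500 platform. Mapping by the authors used HISAT and Bowtie2 (versions not given in the sources used here) and TAIR10, per the submitters' processing notes, and group means were deposited per comparison. The unit of these deposited means is not named and was taken as FPKM from their size and the gene length column. The headers write ERD for bzr1-1D, which was mapped through the name of each table. The 6 complete tables were used and their group means differed between tables by at most 3.33e-07 FPKM. The authors' own ratios and NOISeq probabilities hold their findings and were not used. The sequencing depth behind each value, and so its precision, is unknown.

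Means were compared as log2 ratios with a pseudocount of 0.1 FPKM, without a test, using Python 3.11.15, pandas 2.3.3 and numpy 2.4.6. The 1.5-fold threshold is that of the study, and the minimum was a mean of 1 FPKM over both groups. Sequences were read from RefSeq (TAIR10.1) with Biopython 1.88, and 24144 of 24144 shared protein-coding genes had coordinates within the RefSeq gene. Protein sequences were not analysed here. Steps were tested on simulated data. The text names all 10 members, the genes of the pathway lists past the fold in mock, BZR1, the marker lists and the 5 genes nearest to IAA19. The members and lists were chosen with earlier results of these data known. The further values of GH3.3 and IAA27 and the run shared by IAA6 and IAA19 were chosen after their values were seen. Alternatives were other pseudocounts, filters, thresholds and scalings.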

Additional observations from a re-analysis of the deposited data

How the results depend on the processing

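With 1 mean per group, leaving out each sample in turn was not run. No paired analysis was possible because the files hold group means and no column carries a replicate number. The 6 counts of genes past the fold that were above 0 were recomputed 48 times under the alternatives, of which 47 stayed within 1.5 times the count reported. The exception was that the count of genes lower in bzr1-1D with DPI plus H2O2 than in bzr1-1D mock was 0 at a 2-fold threshold, since IAA6 missed it. The other 6 counts were 0 and stayed 0, which says little about stability. Of 260 recomputed log2 ratios of genes that reached the minimum, 254 kept their side of 1.5-fold. IAA4 and IAA7 in bzr1-1D with DPI plus H2O2 against mock, at -0.0089 and -0.0019, changed sign to 0.0092 and 0.0162 with equal totals. Under the minimum, 8 of 40 ratios crossed 1.5-fold, 7 of IAA5 and 1 of IAA6, as where IAA5 in bzr1-1D mock against Col-0 mock came to 0.45 with a pseudocount of 1. IAA7 in bzr1-1D mock against Col-0 mock came to 0.58 when centred on the median gene and also with equal upper quartiles. IAA2 with both genotypes under DPI came to 0.56 when centred. IAA14 in bzr1-1D with DPI against mock came to -0.53 when centred and -0.57 with equal upper quartiles. IAA14 in Col-0 with DPI against mock came to -0.60 without a pseudocount, past the fold. Sequencing depth is unknown, so the levels at which IAA5 and IAA6 can be told from 0 are unknown too.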
